A study of Mus musculus with 2 samples.

Results

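Satellite glial cells wrap the cell bodies of sensory neurons in the ganglia of the peripheral nervous system. The 8 genes described here, Fabp7, Kcnj10, Glul, Apoe, Ednrb, Gja1, Slc1a3 and Sox2, are known markers of these cells, and they were taken by symbol from the 23282 rows of each count table. Each symbol matched 1 row in both tables, and all 8 passed the minimum of 20 counts summed over both libraries, as did 14854 genes in all. The samples were dorsal root ganglia of wild-type mice, with 2 libraries. The control library came from 6 mice treated with water, and the AEW library from 6 mice that received acetone, ether and water, a chemical model of dry skin, on 5 consecutive days. Ganglia were taken on day 6, RNA was pooled within each group, and each pool gave 1 library, so every difference below lacks replicates. The control library summed to 9333882 counts and the AEW library to 14376228. Strain, sex and age of the mice are not given in the labels.

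Satellite glia form a sheath around each sensory neuron and control what the neuron is bathed in. They take up potassium through the inward rectifier Kir4.1, the product of Kcnj10. The transporter GLAST (Slc1a3) brings in glutamate, which glutamine synthetase (Glul) turns into glutamine. Gap junctions of connexin 43 (Gja1) couple neighbouring glia, and these junctions are known to increase in ganglia after nerve injury and inflammation. Endothelin signals reach the cells through the type B receptor (Ednrb). Fabp7, the brain lipid-binding protein, carries fatty acids inside the cell, Apoe is the lipid carrier apolipoprotein E, and Sox2 is a transcription factor of neural progenitors that these glia keep into adulthood.

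Of the 8 genes, 2 were called lower in the AEW library, Ednrb and Slc1a3, and none higher. A call needs a ratio of at least 1.5-fold in counts scaled by the TMM method and a 95% counting interval that excludes 1. Among all 14854 measured genes, 14.9% were called lower and 17.3% higher by the same rule, so 2 of 8 is not far from the background. Ednrb was 2.55-fold lower (95% counting interval 2.36 to 2.77) and Slc1a3 1.65-fold lower (1.47 to 1.86). The other 6 lay between a ratio of 0.71 for Sox2 and 1.20 for Gja1. The median log2 ratio of the 8 genes was -0.22, against 0.03 for all measured genes, whose quartiles were -0.39 and 0.43. Scaling decides the side on which several of them lie. With TMM, 5 of the 8 had a ratio below 1, against 47.8% of measured genes. The number was 8 of 8 when scaled on neuronal markers and 3 of 8 on markers of the glial lineage. Neuronal scaling called 9902 of all 14854 measured genes lower and 439 higher, and glial lineage scaling 946 lower and 5261 higher. These are the background for the counts of each list under those scalings. The intervals cover counting error only, because each group has 1 library. The deposited values carry no molecular identifiers, so the intervals may be too narrow even for counting error. Effects of AEW and chance differences in the mice, the dissection or the library cannot be told apart with 1 pool per group.

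The regions just upstream of RefSeq transcription starts of 4 genes are shown because these genes stand at the ends of the ratio order, Ednrb and Slc1a3 lowest, Fabp7 and Gja1 highest. For Ednrb, on the minus strand, that start is internal. Its window lies within the gene span given below, which runs to 103844402. Each runs 5′ to 3′ towards the start, from RefSeq's table for build GRCm38.p6, the assembly that mm10 names, and stops before any annotated exon of the gene in GENCODE M21. Capitals mark matches on either strand to the CCAAT box (CCAAT), the GC box (GGGCGG), the TATA box (TATAAA) or either of a pair of Sox-type motifs (ACAAAG and ACAATG).
Ednrb, chr14:103843702-103843951, minus strand: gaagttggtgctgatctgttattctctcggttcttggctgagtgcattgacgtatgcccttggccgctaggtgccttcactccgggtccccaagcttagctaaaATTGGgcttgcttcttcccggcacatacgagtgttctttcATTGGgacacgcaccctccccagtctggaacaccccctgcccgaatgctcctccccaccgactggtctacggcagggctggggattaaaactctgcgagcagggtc
Slc1a3, chr15:8710808-8711057, minus strand: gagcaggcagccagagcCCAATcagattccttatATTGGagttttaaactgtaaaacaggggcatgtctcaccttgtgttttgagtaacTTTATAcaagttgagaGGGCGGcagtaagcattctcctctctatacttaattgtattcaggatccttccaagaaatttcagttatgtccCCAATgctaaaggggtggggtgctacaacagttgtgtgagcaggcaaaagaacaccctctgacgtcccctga
Fabp7, chr10:57784673-57784880, plus strand: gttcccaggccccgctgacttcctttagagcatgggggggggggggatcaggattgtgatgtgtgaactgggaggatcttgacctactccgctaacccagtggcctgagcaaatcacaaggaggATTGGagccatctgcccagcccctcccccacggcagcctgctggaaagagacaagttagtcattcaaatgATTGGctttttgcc
Gja1, chr10:56377050-56377299, plus strand: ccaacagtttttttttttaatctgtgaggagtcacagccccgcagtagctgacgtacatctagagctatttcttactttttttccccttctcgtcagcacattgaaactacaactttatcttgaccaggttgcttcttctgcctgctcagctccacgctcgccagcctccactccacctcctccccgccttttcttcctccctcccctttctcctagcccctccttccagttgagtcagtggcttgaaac
The Ednrb window holds 2 CCAAT matches, the Slc1a3 window 3 CCAAT matches with 1 GC box and 1 TATA box, and the Fabp7 window 2 CCAAT matches. The Gja1 window holds no match to any of these letters. Over the 8 genes, 10 windows were searched, because Apoe has 3 starts. Each was searched over all 250 bases before its start, exons included, and 2 of the Apoe windows overlap. A CCAAT match was held by 6 of the 10, against 33.8% of 32851 windows searched over the same length. A GC box was present in 4 of 10 (32.7% of all windows), a TATA box in 2 (12.4%), ACAAAG in 2 (16.5%) and ACAATG in 1 (10.7%). The E box CANNTG was found in 5 of 10 (66.2%) and the spaced palindromic motif of NFI factors in none (0.0365%). These are matches of letters, not sites shown to be used, and genes at both ends of the ratio order held CCAAT matches.

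Ednrb (ENSMUSG00000022122.15, chromosome 14, 103814625 to 103844402, minus strand on mm10) was counted 1573 times in control and 1008 times in AEW ganglia, or 174 and 68.0 after scaling to 1000000 counts per library (scaled CPM). The AEW library thus held fewer Ednrb reads although it was the deeper of the pair. Only 3.35% of measured genes had a lower ratio. Ednrb stood at -3.11 scaled median absolute deviations from the median of the 500 genes nearest to it in mean expression, a limit of 3 that 0.471% of measured genes passed in the lower direction together with the fold rule (1.19% in the higher direction). At a fold of 2 it was the 1 member called lower, against 6.85% of measured genes, and none was called higher, against 8.23%. In bulk RNA, fewer cells of a type and less RNA per cell cannot be told apart, for this gene and for the others below.

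Of 5 other measured genes of the endothelin system, 2 were called lower and 1 higher with TMM, 4 and 0 with neuronal scaling, and 1 and 2 with glial lineage scaling. With total counts, with the AEW library thinned and with the GC correction, 1 was called lower. Edn3, a ligand that binds the type B receptor, had 128 and 75 counts and was 2.79-fold lower (2.08 to 3.77). Edn1, the vascular ligand, was 1.57-fold lower (1.05 to 2.37) at only 50 and 52 counts. The processing enzyme Ece2 was 2.17-fold higher (1.64 to 2.92), whereas its relative Ece1 had a ratio of 1.24 (1.13 to 1.36). Ednra, the type A receptor, stood at 48 and 61 counts with a ratio of 0.78 (0.52 to 1.16), an interval that holds 1. The receptor and its ligand Edn3 were thus both lower in the AEW library with TMM.

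Slc1a3 (ENSMUSG00000005360.14, chromosome 15, 8634124 to 8710764, minus strand) was counted 553 times in control and 548 times in AEW ganglia, or 61.1 and 37.0 scaled CPM. Its counts were nearly equal in libraries of different depth, which is what gives the lower scaled level. Glul (ENSMUSG00000026473.15, chromosome 1, 153899944 to 153909723, plus strand), the next step of the same pathway, had 7221 and 9469 counts, or 798 and 639 scaled CPM. Its ratio of 0.80 (0.78 to 0.83) has a narrow interval below 1 and does not reach 1.5-fold. Glul overlaps Teddm2 on the opposite strand, which had 1 and 9 counts in its own row, and the labels do not say whether counting used strand. The astrocyte-type glutamate transporter Slc1a2 had 44.3 and 32.6 scaled CPM and a ratio of 0.74 (0.64 to 0.84), also short of the threshold. Slc1a1, a transporter of neurons and epithelia, was near the lower end of measurement at 23 and 47 counts (1.25, 0.74 to 2.15).

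Across 21 further genes of glutamate and glutamine handling, 4 were called higher and 4 lower (0 and 10 when scaled on neuronal markers, 9 and 2 on glial lineage markers). Slc38a3, a glutamine transporter known from glia of the brain, was 2.39-fold lower (1.52 to 3.78) at 51 and 35 counts. Slc38a2, a neutral amino acid transporter, was 1.82-fold lower (1.75 to 1.89). Slc17a7, which loads glutamate into synaptic vesicles of neurons, was 1.87-fold higher (1.59 to 2.21), and the neutral amino acid transporter Slc1a4 likewise 1.87-fold (1.63 to 2.15). The list therefore divides, and its median log2 ratio was 0.26 while that of the pair Slc1a3 and Glul lay below 0.

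Kcnj10 (ENSMUSG00000044708.5, chromosome 1, 172341210 to 172374085, plus strand) was the member closest to equal levels with TMM. It had 433 and 733 counts, 47.8 and 49.5 scaled CPM and a ratio of 1.03 (0.92 to 1.17). With total counts Apoe (0.97) was closer to 1 than Kcnj10 (1.10). With glial lineage scaling Glul (1.04) was closer than Kcnj10 (1.34). Kcnj16, which encodes a subunit that joins Kir4.1 in mixed channels, had 39 and 36 counts and was 1.77-fold lower (1.10 to 2.87). Aqp4, the water channel that accompanies Kir4.1 in astrocytes, had a ratio of 0.94 (0.75 to 1.19). Of 12 measured inward rectifier and water channel genes beside Kcnj10, 3 were called higher and 5 lower with TMM, 1 and 9 with neuronal scaling, and 4 and 3 with glial lineage scaling. Kcnj2 was 2.77-fold lower (1.86 to 4.15) and Kcnj8, a pore subunit of ATP-sensitive channels of vessels, 2.40-fold lower (1.58 to 3.66). Kcnj4 was 6.00-fold higher (3.64 to 10.5) from 17 counts in the control, and the water channel Aqp1 2.23-fold higher (2.08 to 2.39).

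Gja1 (ENSMUSG00000050953.10, chromosome 10, 56377330 to 56402513, plus strand) was counted 320 times in control and 630 times in AEW ganglia, or 35.3 and 42.5 scaled CPM. Its ratio of 1.20 (1.05 to 1.38) was the highest of the 8 and was under the threshold. Other connexins of glia lay on the other side of 1, although Gja1 was below 1 as well (0.64) when scaled on neuronal markers. Gjb6, connexin 30, was 1.78-fold lower (1.57 to 2.03). Gjc1 was called lower at a ratio of 0.50 (0.37 to 0.67), while Gjb1, the connexin of myelinating Schwann cells, and Gjc3 had ratios of 0.69 (0.58 to 0.82) and 0.76 (0.66 to 0.88). In all, 15 connexin, pannexin and associated genes beside Gja1 were measured, with 5 called higher and 2 lower (3 and 7 with neuronal scaling, 6 and 1 with glial lineage scaling).

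Skin transcripts differed strongly between the libraries, and connexin 43 is known from epidermis as well. All 8 of 8 listed keratinocyte markers were called higher, and their summed level was 16.9 scaled CPM (control) and 507 (AEW). Krt5 had 1 and 1336 counts and Krt14 1 and 1218. The part of skin RNA in the levels of Gja1, Fabp7, Ednrb and Sox2 was not tested.

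Fabp7 (ENSMUSG00000019874.11, chromosome 10, 57784881 to 57788450, plus strand) had 1791 and 3463 counts, or 198 and 234 scaled CPM, with a ratio of 1.18 (1.12 to 1.25). Correction for transcript GC content, which is 42.6% for Fabp7 and 50.2% for the median measured gene, moved the ratio to 1.38 (1.31 to 1.46), still under the threshold. Among 7 measured relatives, 2 were called higher and 1 lower (0 and 5 with neuronal scaling, 3 and 0 with glial lineage scaling). Fabp5, a fatty acid binding protein of epidermis and of several nerve cell types, was 1.83-fold higher (1.72 to 1.95), and Fabp4, known from fat cells and vessels, 1.54-fold (1.41 to 1.69). Pmp2, the form found in peripheral myelin, had a ratio of 1.14 (1.06 to 1.24), close to that of Fabp7.

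Apoe (ENSMUSG00000002985.16, chromosome 7, 19696109 to 19699188, minus strand) had the most counts of the 8, 54632 and 81798 counts, or 6034 and 5519 scaled CPM. It made up 81.8% of the counts of the 8 genes in control and 83.5% in AEW ganglia, so any sum over them is mostly Apoe. Its ratio was 0.91 (0.90 to 0.92), or 0.79 (0.79 to 0.80) after the GC correction. Its transcript has a GC content of 59.5%, the highest of the 8. Without Apoe, the other 7 summed to 1339 scaled CPM (control) and 1088 (AEW), with a ratio of 0.81 (0.79 to 0.83). Macrophages make Apoe too, and all 15 listed macrophage markers were called lower, with a summed level of 955 scaled CPM (control) and 357 (AEW). None of those 15 markers was at 0 in either library. How much of the Apoe counts came from macrophages was not tested.

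Among 20 genes of lipoproteins and their receptors, 2 were called higher and 5 lower (0 and 15 when scaled on neuronal markers, 5 and 2 on glial lineage markers). Apod, a lipocalin of nerve fibroblasts and glia, was 2.92-fold lower (2.87 to 2.96), with 52670 and 29571 counts. Clu, which encodes the lipid carrier clusterin, had a ratio of 1.17 (1.12 to 1.23), and Apoc1, the neighbour of Apoe on chromosome 7, 1.48 (1.15 to 1.94). The uptake receptor Lrp1 stood at 0.71 (0.65 to 0.77). Sorl1, a sorting receptor that also binds Apoe, was 2.63-fold higher (2.34 to 2.96), and the receptor Lrp8 1.56-fold higher (1.26 to 1.96).

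Sox2 (ENSMUSG00000074637.7, chromosome 3, 34650405 to 34652461, plus strand) was the member with the fewest counts, 235 and 273, or 26.0 and 18.4 scaled CPM. Its ratio was 0.71 (0.59 to 0.85), lower in the AEW library by less than 1.5-fold. The Sox2 gene lies inside Sox2ot, a non-coding RNA on the same strand that had 121 and 176 counts in its own row, so reads of the pair may be shared between their rows and the Sox2 value is uncertain to that extent. Of 26 measured Sox, Notch and other regulators of glia, 1 was called higher and 4 lower (1 and 20 with neuronal scaling, 6 and 1 with glial lineage scaling). Sox10, which defines the glial lineage of the neural crest, had a ratio of 0.91 (0.86 to 0.97), and Sox9 0.95 (0.87 to 1.05). Foxd3, a further neural crest factor, was 1.96-fold lower (1.60 to 2.41), and Nfia 1.55-fold lower (1.49 to 1.62). Sox21 had 7 and 115 counts and was called higher, 0.773 and 7.76 scaled CPM.

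**Figure D1:**
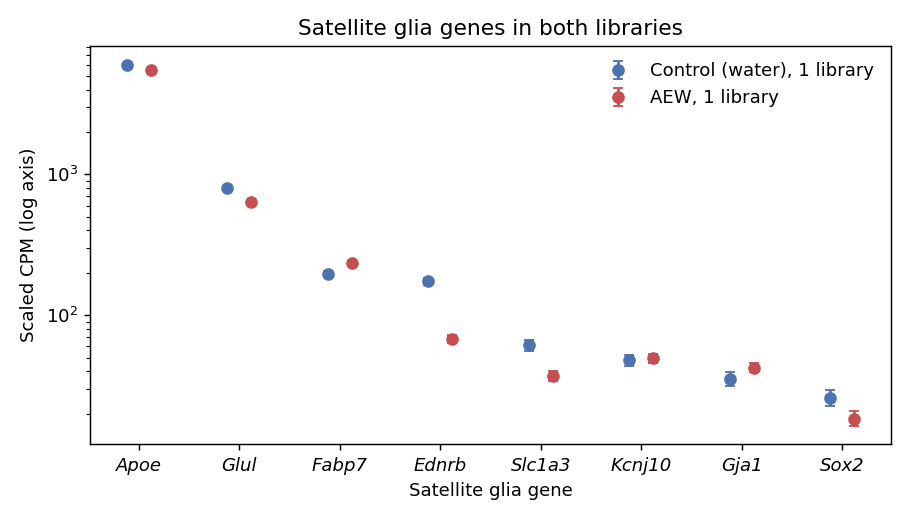
Scaled CPM on a log axis for the 8 satellite glia genes, ordered by control level, with 1 point per library and bars for the 95% counting interval of each level. The control and AEW points stand apart most for Ednrb (174 and 68.0) and next for Slc1a3 (61.1 and 37.0), and the bars of Kcnj10 and of Gja1 overlap.

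In the plot of scaled CPM, 5 genes have control points above the AEW points with counting intervals that do not overlap, namely Apoe, Glul, Ednrb, Slc1a3 and Sox2. Intervals of the ratio lay wholly below 1 for those 5, wholly above 1 for Fabp7 and Gja1, and held 1 for Kcnj10 alone. Of all measured genes, 28.9% had an interval wholly below 1 and 32.0% wholly above.

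Levels can be set between genes per length of transcript only where reads came from whole transcripts. Whether they did, or came only from 3′ ends, is not given in the labels, so the order per length holds for the first case. For reads from 3′ ends, as QuantSeq kits are known for, the scaled CPM themselves give the control order, Apoe, Glul, Fabp7, Ednrb, Slc1a3, Kcnj10, Gja1 and Sox2. Per kilobase of the longest GENCODE M21 transcript, the control order from the top was Apoe at 4285 scaled CPM per kb, Glul at 286, Fabp7 at 225, Ednrb at 42.3, Slc1a3 at 14.7, Sox2 at 12.6, Gja1 at 11.1 and Kcnj10 at 8.84. Slc1a3 and Sox2 had overlapping counting intervals in that order, as did Sox2 and Gja1. In the AEW library Fabp7 at 266 came before Glul at 229, and Ednrb at 16.6 came next. Gja1 followed at 13.4, and the last 3, Kcnj10 at 9.15, Sox2 at 8.96 and Slc1a3 at 8.88, had intervals that overlapped between neighbours. In scaled CPM the AEW order was Apoe, Glul, Fabp7, Ednrb, Kcnj10, Gja1, Slc1a3 and Sox2, with overlapping intervals between Kcnj10 and Gja1 and between Gja1 and Slc1a3.

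**Figure D2:**
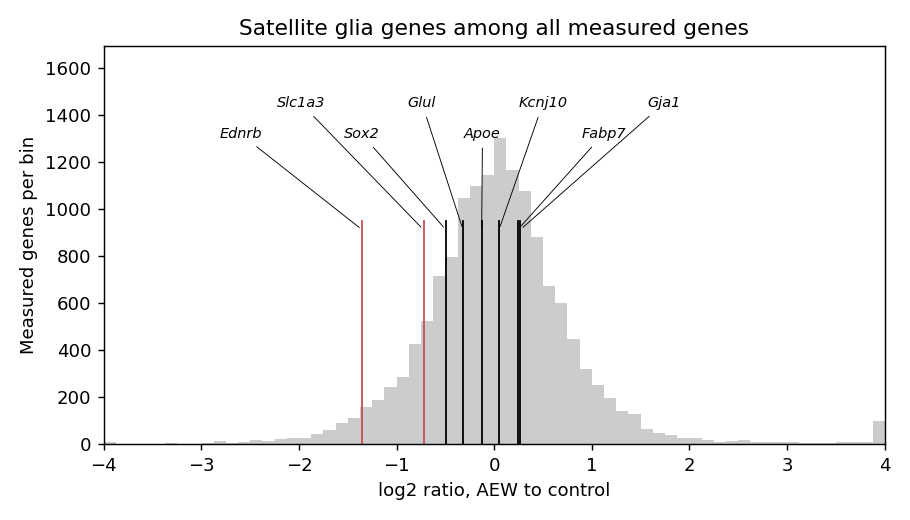
Distribution of the log2 ratio of AEW to control over measured genes with counts in both libraries, in bins (grey), with a vertical line for each satellite glia gene (red where called lower), and values beyond 4 in either direction in the end bins. Ednrb at -1.35 lies in the lower tail, and the lines of the other 7 run from -0.72 to 0.27.

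The 8 genes did not keep 1 ratio to each other, which is a comparison within each library and does not depend on the scaling between libraries. Of 28 pairs, 23 had a ratio of counts that differed between the libraries with an exact conditional interval that excludes 1, and 14 differed by at least 1.5-fold. All 7 pairs with Ednrb were among those 14, and 5 of the 7 pairs with Slc1a3. The same counts were not made for pairs of other genes, so whether 23 and 14 of 28 exceed the background was not tested. Fabp7 had 1.14 counts for each Ednrb count in control and 3.44 in AEW ganglia, a 3.02-fold difference (2.73 to 3.33). Against Slc1a3, the nearest gene, Ednrb still differed by 1.55-fold (1.34 to 1.79). The pairs of at least 1.5-fold that held neither Ednrb nor Slc1a3 numbered 3, which set Sox2 against Fabp7 and Gja1, and Glul against Gja1. For 5 of the 28 pairs the interval held 1. Gja1 and Fabp7 had nearly the same ratio in both libraries, 0.179 and 0.182 counts of Gja1 for each count of Fabp7, a factor of 1.02 (0.88 to 1.18). Of the 7 steps between neighbours in the order of ratios, the pair interval excluded 1 for Ednrb and Slc1a3, for Glul and Apoe (1.14, 1.11 to 1.18) and, narrowly, for Apoe and Kcnj10 (1.13, 1.002 to 1.28). It held 1 for Slc1a3 and Sox2, Sox2 and Glul, Kcnj10 and Fabp7, and Fabp7 and Gja1. The GC correction differs between genes and does move these pairs. After it, Apoe (0.79) lay below Glul (0.81), the reverse of the TMM order, with Slc1a3 at 0.63 and Fabp7 at 1.38. The pair counts and intervals were not repeated with that correction.

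**Figure D3:**
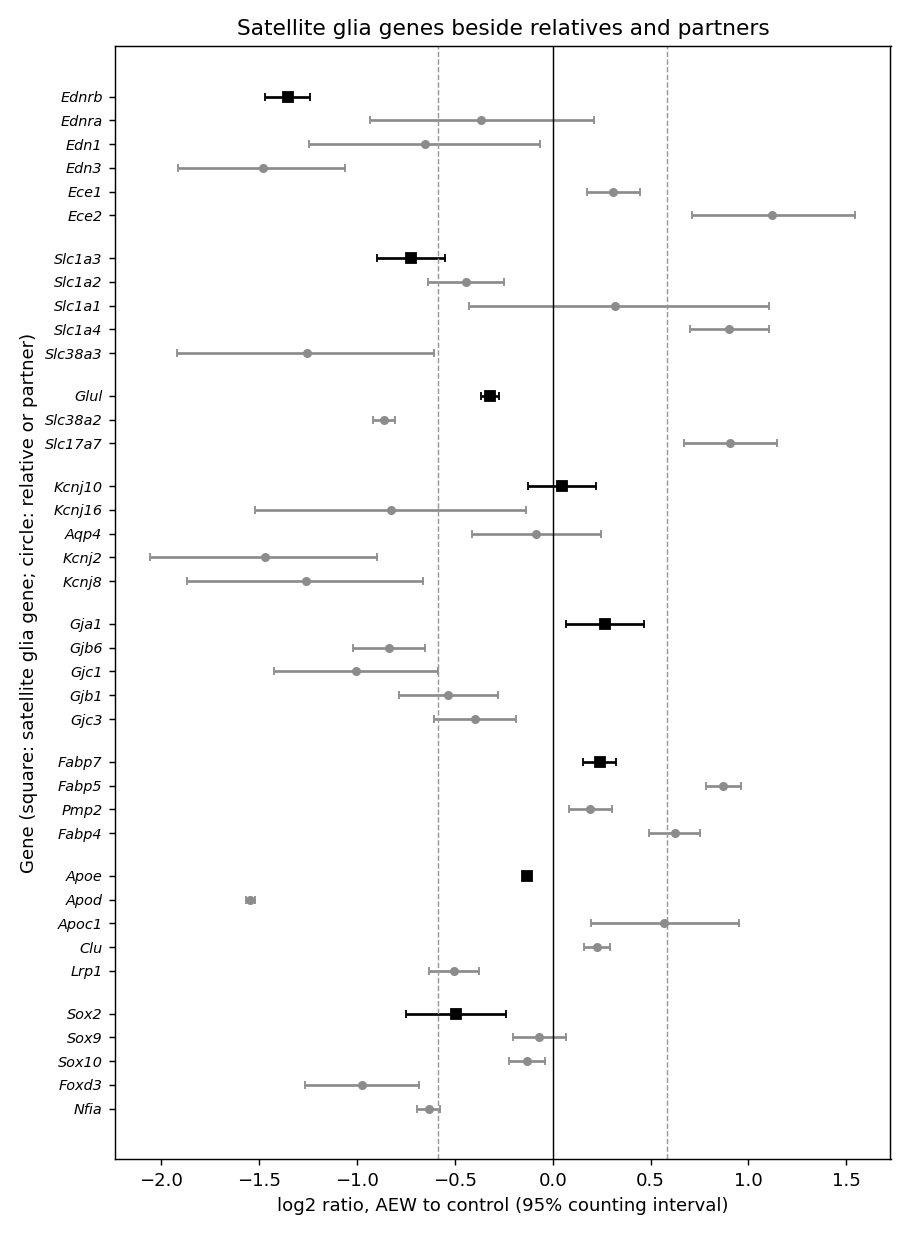
Log2 ratio of AEW to control with its 95% counting interval for each satellite glia gene (black squares) above its relatives and partners (grey circles), with 1.5-fold marked by dashed lines. Edn3 lies near Ednrb on the lower side, while Gjb6, Gjc1, Gjb1 and Gjc3 lie below 0 and Gja1 above it with TMM, though Gja1 too was below a ratio of 1 (0.64) when scaled on neuronal markers.

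Further genes known from satellite glia lay mostly below a ratio of 1 with TMM, 24 of 31, against 47.8% of all measured genes. By the call rule 8 of the 31 were lower and 1 higher (29 and 0 when scaled on neuronal markers, 2 and 2 on glial lineage markers), and their median log2 ratio was -0.37. Mt1, a metallothionein, was 1.69-fold lower (1.63 to 1.76), whereas its relative Mt3 was 1.68-fold higher (1.52 to 1.86). Pla2g7, an enzyme that degrades platelet-activating factor, had a ratio of 1.43 (1.31 to 1.57). S100b, a calcium-binding protein of glia, stood at 1.07 (1.05 to 1.09). Cdh19, a cadherin of Schwann and satellite cells, had only 16 and 2 counts, below the minimum for a call, a ratio of 0.0764 with an interval of 0.00852 to 0.325.

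Genes known to increase when glia become reactive were called lower in 4 of 13 measured and higher in 1 with TMM. Scaled on neuronal markers 10 were lower and 0 higher, and on glial lineage markers 3 were lower and 3 higher. With total counts 3 were lower and 3 higher, against 1833 and 3033 of all measured genes. With the GC correction 4 were lower and 2 higher. Gfap, the filament protein most used to mark reactive satellite glia, had 245 and 301 counts, 27.1 and 20.3 scaled CPM and a ratio of 0.75 (0.63 to 0.89), which is not a call. Vim, the filament protein vimentin, was 1.57-fold lower (1.53 to 1.61). Lcn2, a secreted lipocalin of neutrophils and of reactive astrocytes, was called lower at a ratio of 0.28 (0.23 to 0.33) and the copper carrier Cp 2.19-fold lower (2.08 to 2.31). Serpina3n, a protease inhibitor of reactive astrocytes, had a ratio of 1.46 (1.34 to 1.59), and the adhesion receptor Cd44 1.44 (1.34 to 1.54), both just short of the threshold.

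Markers of other cells differed between the libraries beside these genes. The labels name neurons as the cell type, but glial RNA was plentiful: 8 markers of myelinating Schwann cells took 1.89% (exact binomial interval 1.88 to 1.90) of counts in control and 1.71% (1.71 to 1.72) in AEW ganglia, and the 8 satellite glia genes 0.715% (0.710 to 0.721) and 0.681% (0.677 to 0.685). Sensory neuron markers were called higher in 8 of 10 measured and took 0.476% (0.471 to 0.480) and 0.920% (0.915 to 0.925). Fibroblast markers were lower in 4 of 7, from 1.40% (1.40 to 1.41) to 0.717% (0.712 to 0.721). For the myelinating Schwann list 2 of 8 were called lower, and for the 5 measured genes of the glial lineage, which both kinds of glia express, 1 was. Of 5 genes of non-myelinating Schwann cells 2 were called higher, among them the neurotrophin receptor Ngfr at 2.69-fold (2.55 to 2.84). Melanocytes also carry Ednrb, and 1 of 3 measured melanocyte markers was called higher (Dct, at 0 and 287 counts), with a summed level of 56.9 scaled CPM (control) and 66.5 (AEW). Endothelial markers were lower in 1 of 8, and 6 markers of brain and spinal cord astrocytes held 1 higher and 1 lower. Scaled on neuronal markers, the lower calls were 8 of 8 for myelinating Schwann cells, 5 of 5 for the glial lineage, 7 of 7 for fibroblasts, 7 of 8 for endothelium, 5 of 6 for astrocytes, 2 of 5 for non-myelinating Schwann cells and 2 of 3 for melanocytes. Scaled on glial lineage markers they were 0, 1, 4, 0, 0, 0 and 0. Glial lineage scaling uses the median of the same 5 measured genes, so the centre of that list was fixed in advance. Of all 14854 measured genes, 9902 were called lower with neuronal and 946 with glial lineage scaling. The part of these shifts in the satellite glia genes was not tested.

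**Figure D4:**
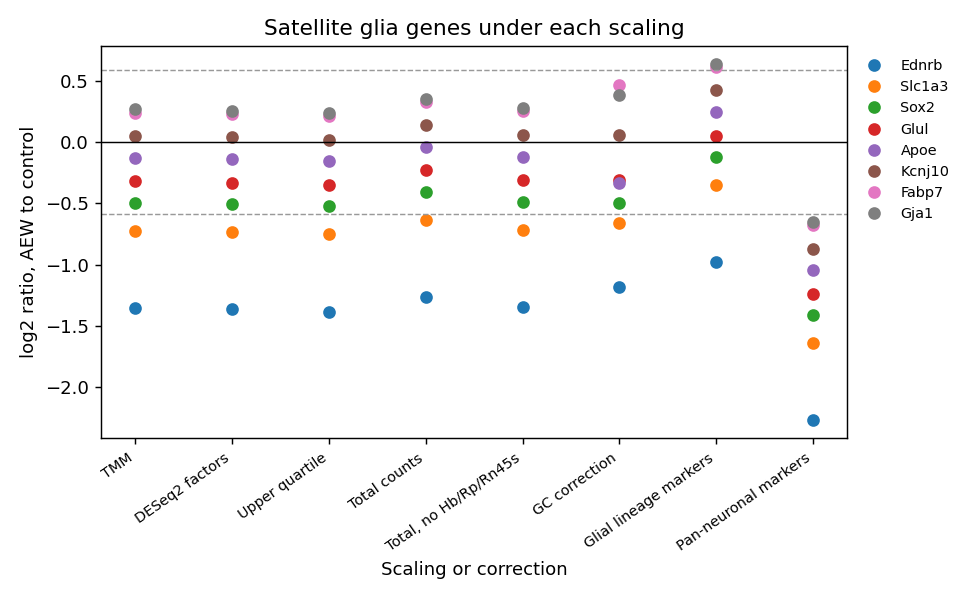
Log2 ratio of AEW to control of the 8 satellite glia genes under 8 scalings or corrections, 1 point per gene, with 1.5-fold marked by dashed lines. Ednrb lies under the lower line in each, whereas all 8 genes lie under it when scaled on pan-neuronal markers, and Fabp7 and Gja1 above the upper line when scaled on glial lineage markers.

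Calls for 7 of the 8 genes, all but Ednrb, changed with the marker list used for scaling, as the plot of ratios by scaling shows. Scaled on the median of the 10 neuronal markers, which lowers every log2 ratio by 0.92, all 8 genes were called lower. So were 9902 of all 14854 measured genes. Ratios of the 8 ran from Gja1 at 0.64 (0.56 to 0.73) to Ednrb at 0.21 (0.19 to 0.22). Scaled on the median of the glial lineage markers, which raises every log2 ratio by 0.37, Ednrb was called lower at 0.51 (0.47 to 0.55), Slc1a3 was not called at 0.78 (0.69 to 0.88), and Fabp7 at 1.53 (1.44 to 1.62) and Gja1 at 1.56 (1.36 to 1.79) were called higher. Of all measured genes, 5261 were called higher and 946 lower with glial lineage scaling. DESeq2 size factors, upper quartile, both total-count scalings and the GC correction gave the calls of TMM for all 8 satellite glia genes. Ednrb was called lower under each of the 13 other settings and Slc1a3 under 9. Part of this tally was fixed in advance, because other count filters could not change these calls. Slc1a3 was not called with glial lineage scaling, with an interval that excludes 1.5-fold, at 2-fold or with the deviation limit.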

How the data were processed

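RNA of 6 mice per group was pooled per the series' design text, and per the labels' protocols 500 ng of RNA went into each Lexogen QuantSeq library. Bowtie2, bedtools and mm10 are named in the submitters' processing notes. Versions, annotation, strand and the handling of multiply matching reads are not given there. The values deposited by the authors are raw counts per symbol, whole numbers without normalization, with totals of 9333882 (control) and 14376228 (AEW). In all, 35 symbols occurred more than once, over 79 rows, which stayed in the totals and out of calls.

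Libraries were scaled with TMM (edgeR 4.0.16, factors 0.970 and 1.03). Ratios carry exact 95% intervals from the conditional binomial distribution (Clopper-Pearson), ratios of member pairs the exact conditional interval of the odds ratio (scipy 1.17.1). With 1 library per group no p-value was computed. A simulation of this comparison held 14866 genes. The call rule picked out 100 of 100 doubled genes as higher, and 94.0% of 100 halved ones (0.5 times) as lower. It also gave 75 higher and 68 lower calls over 14666 unchanged genes. The counting intervals held the true ratio in 95.9% of cases, so the simulated noise was close to counting error alone. How often differences between pools, dissections or libraries give a call was not tested. The simulated rates are therefore not error rates of the calls reported here.

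The 8 genes and the 20 gene lists beside them were chosen with earlier results of these data known. Named by rule were the 8 genes, 25 set relatives and partners, and per list the 2 genes with the highest lower bound and the 2 with the lowest upper bound. Some genes that this rule names are not reported here. Alternatives were DESeq2 1.42.0 size factors, total count, upper quartile and marker scaling, other filters and call rules, thinning of the AEW library, and a lowess correction for transcript GC content (statsmodels 0.14.6).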

Additional observations from a re-analysis of the deposited data

How the results depend on the processing

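Of 65 repeats of the counts and the median reported above, 45 moved by no more than 1.5-fold (counts) or stayed within a range (median). That range ran from the median of the 8 lower interval bounds to the median of the 8 upper ones. Part of this agreement was fixed in advance. Other count filters and call rules leave every ratio, and so the median, unchanged. Other count filters also cannot change the call of any of the 8 genes. The members called lower, 2 with TMM, numbered 8 when scaled on neuronal markers and 1 when scaled on glial lineage markers, with an interval that excludes 1.5-fold, at 2-fold, and with a deviation of over 3. The members called higher, 0 with TMM, numbered 2 with glial lineage scaling. Their median log2 ratio of -0.22 became -0.14 with total counts, -1.14 with neuronal scaling, 0.15 with glial lineage scaling and -0.32 with the GC correction. Over all 14854 measured genes, 2577 were called higher and 2220 lower with TMM, 439 and 9902 with neuronal scaling, and 5261 and 946 with glial lineage scaling. The numbers were 1327 and 1071 with an interval that excludes 1.5-fold, 1223 and 1018 at 2-fold, and 177 and 70 with the deviation limit. Ednrb and Slc1a3, called lower with TMM, were called higher in none of these repeats, whereas Fabp7 and Gja1 were called lower with neuronal scaling (ratios 0.63 and 0.64) and higher with glial lineage scaling (1.53 and 1.56). Neuronal and glial lineage scaling moved the median of all genes by -0.92 and 0.37. No paired analysis was possible because each group has 1 library, and for the same reason no library could be left out. A count of 0 allows up to 3 counts, or 0.331 (control) and 0.202 (AEW) scaled CPM.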

Other observations

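Satellite glia are also known for making cholesterol and fatty acids, and of 25 genes of those pathways 6 were called higher in the AEW library and 1 lower, with a median log2 ratio of 0.11. Scaled on neuronal markers 0 were called higher and 15 lower, and on glial lineage markers 10 and 0. Srebf2, the transcription factor that drives cholesterol synthesis, had 88 and 376 counts and was 2.61-fold higher (2.06 to 3.33). Dhcr7, an enzyme of a late step of cholesterol synthesis, was 2.38-fold higher (2.03 to 2.80). Insig1, a brake on the pathway, was 1.73-fold lower (1.48 to 2.02). Hmgcs1, an early enzyme and the most abundant of these 4, had 9257 and 10612 counts and a ratio of 0.70 (0.68 to 0.72). Neurons and Schwann cells use the same enzymes, and the counts do not tell the cells apart.

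Erbb3, the neuregulin receptor of Schwann cells, had 0 (control) and 2 (AEW) counts, a gene chosen after its values were seen, although Sox10, another gene of the same lineage, had 1560 and 2332.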
